A study of Rattus norvegicus with 12 samples.

Results

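Ptx3, Gpr15lg, S100a8, S100a9 and Lcn2 encode secreted proteins of the first inflammatory response, and they were followed here through nerve, dorsal root ganglion and spinal cord of rats that had received a myelin peptide in the sciatic nerve. They are 5 of the 15159 rat genes that could be named on the arrays, and 6 probes represent them, 2 for Ptx3 and 1 for each other gene. The genes had been picked because earlier readings of these same arrays placed them among the steepest increases in the injected nerve, so their nerve ratios below are a description and support nothing. Their values in the ganglia and the cord had no part in that choice. Lcn2 went against it, because neither nerve of either rat type gave a signal well above background on both of its spots.

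Total RNA was measured on 12 single-colour Agilent arrays, 1 for each condition. All rats were 8-week-old females, and all had been given 50 µg of MBP84-104, a fragment of myelin basic protein, in 5 µl into the left sciatic nerve. The wild-type rats were Sprague-Dawley and were examined on day 12, and the nude rats were athymic (Hsd:RH-Foxn1rnu) and were examined on day 7. Nude rats lack a working Foxn1, the factor that builds the thymus, and so lack mature T cells, while their myeloid cells remain. Each array held a pool of 3 animals by its label. The sample labels and the study's own text differ on the day, the strain of the controls and the number of animals, and the labels are followed here. From both rat types came the injected nerve with the contralateral nerve, which had received the saline vehicle (PBS), the lumbar dorsal root ganglia (DRG) of both sides, and the dorsal cord at the lumbar enlargement with a segment rostral to it. The rostral cord and the contralateral tissues are from injected animals, so that no array holds an untouched rat. Rat type, strain and day change together and cannot be told apart, and in the DRG and cord the slide changes with them.

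The pentraxins are soluble pattern-recognition molecules of innate immunity. PTX3, the long pentraxin, is made locally by macrophages, endothelium and fibroblasts under interleukin 1, tumor necrosis factor or Toll-like receptor signals, and it binds complement C1q and microbes. S100A8 and S100A9 are small calcium-binding proteins that pair as calprotectin, fill the cytosol of neutrophils and monocytes, and signal through Toll-like receptor 4 and RAGE once released. Lipocalin 2 (Lcn2) withholds iron from bacteria by binding their siderophores, and it is induced by nuclear factor kappa B (NF-kB) together with its cofactor IkB-zeta. GPR15LG, made chiefly by epithelia of skin and gut, is a ligand of GPR15, a homing receptor of T cells.

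The sequences just upstream of these genes are shown as a description. Of the windows printed, those of Ptx3 and Lcn2 hold a match to the NF-kB motif. RefSeq promoters of the rat build GRCr8 were found for 4 of the 5 genes, Ptx3, Gpr15lg, S100a9 and Lcn2. Each is printed 5′ to 3′ on the strand of its gene and covers the 250 bases before the start used in the promoter table. For Lcn2 that start lies inside the annotated span of the gene, so part of its window overlaps the gene. Capitals mark matches to NF-kB, to C/EBP (TTGCNNAA), or to the TATA box (TATAAA). The windows are chr2:152797313-152797562 (plus strand) for Ptx3, chr3:36081781-36082030 (minus strand) for Lcn2, chr16:12896135-12896384 (minus strand) for Gpr15lg and chr2:178490623-178490872 (minus strand) for S100a9.
Ptx3: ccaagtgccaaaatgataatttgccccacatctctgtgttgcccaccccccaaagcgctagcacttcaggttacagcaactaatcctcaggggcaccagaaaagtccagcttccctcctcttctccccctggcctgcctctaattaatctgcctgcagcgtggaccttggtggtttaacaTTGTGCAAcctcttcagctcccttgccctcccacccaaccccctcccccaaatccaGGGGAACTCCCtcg
Lcn2: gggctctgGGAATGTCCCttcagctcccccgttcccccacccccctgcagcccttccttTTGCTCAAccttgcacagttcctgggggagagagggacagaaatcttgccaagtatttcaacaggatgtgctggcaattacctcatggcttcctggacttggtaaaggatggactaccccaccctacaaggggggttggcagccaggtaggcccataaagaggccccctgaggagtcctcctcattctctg
Gpr15lg: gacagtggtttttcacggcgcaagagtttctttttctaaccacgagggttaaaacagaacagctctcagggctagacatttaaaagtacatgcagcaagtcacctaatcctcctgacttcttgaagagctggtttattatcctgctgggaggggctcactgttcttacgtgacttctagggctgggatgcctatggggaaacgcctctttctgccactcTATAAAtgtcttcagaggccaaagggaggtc
S100a9: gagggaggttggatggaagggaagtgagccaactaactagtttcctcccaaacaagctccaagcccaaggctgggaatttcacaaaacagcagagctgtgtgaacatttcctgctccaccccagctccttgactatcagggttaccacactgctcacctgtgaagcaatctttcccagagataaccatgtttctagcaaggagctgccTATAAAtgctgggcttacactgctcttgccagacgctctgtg

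In the Ptx3 promoter 2 overlapping NF-kB matches began 14 and 13 bases before the start, and a C/EBP match began 70 bases before it. In the Lcn2 promoter an NF-kB match lay 242 bases and a C/EBP match 191 bases before the start. The Gpr15lg and S100a9 windows held neither, but a TATA box 31 and 42 bases before their starts. No window held the letters of STAT (TTCNNNGAA) or AP-1 (TGANTCA). Among 33469 rat promoters of this length, 6.33% held an NF-kB match, 9.22% a C/EBP match, 7.67% a STAT match and 6.34% an AP-1 match on either strand, and 8.06% a TATA box on the strand of the gene. These matches are letters and not measured binding.

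Signals are given relative to the median probe of the array, so that 1 is the median, and a probe counts as above background where every one of its spots carried the flag of the extraction software. Such relative signals compare arrays for 1 gene but not 1 gene with another. The median probe signal ran from 15.4 on the injected nude nerve to 74.9 on the rostral wild-type cord, and the spots well above background from 59.5% to 76.9%. Summed marker signals of sensory neurons were highest in the DRG and those of astrocytes and cord neurons in the cord, as labelled, and those of Schwann cells were highest in the contralateral nerves, while the injected nerves, at 1823 and 1671 times the median, lay within the DRG range of 1374 to 1868 and every cord array lay lower. Because every condition has 1 array, differences lack a replicate check and no p-value is given. The only spread available is that between spots of a probe, which is technical. Over the arrays above background its median was 0.08 log2 units for S100a8 (11 arrays), 0.08 for S100a9 (12) and 0.31 for Ptx3 (4). The Gpr15lg probe had 1 spot.

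Ptx3 was seen above background in the nerve alone. Its relative signal was 18.1 in the injected and 0.758 in the contralateral wild-type nerve, and 3.68 and 1.12 in the nude nerves. On the 8 DRG and cord arrays it was between 0.0673 and 0.249, with no array on which both spots were above background, although 1 of 2 spots was in both wild-type cord segments and in the nude lumbar cord. The 2 injected nerves were thus the highest of the 12 arrays, and the contralateral nerves followed. The contralateral nerves differed by 0.56 log2 units, close to the gap between their own spots, 0.48 and 0.54.

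In the wild-type nerve Ptx3 had the largest ratio of all 10191 measured genes, 4.58 on the log2 scale or 23.9-fold. In the nude nerve it stood at 1.72, or 3.30-fold, and at place 128 of 9445. The deposited signals of the nude nerves were almost equal before scaling, 56.6 with the injection and 54.7 without, which is a ratio of 0.05 on the log2 scale, where the median gene stood at −1.97. The second Ptx3 probe, a single spot, was above background on the injected wild-type nerve alone, with a relative signal of 1.51 against 0.247, which gives a bound of at least 4.07-fold.

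Gpr15lg was higher in nude than in wild-type rats in the nerves of both sides, but not in the DRG or the rostral cord. Its relative signal in the injected nerve was 94.9 in nude and 7.59 in wild-type rats, against 2.11 and 0.625 in the contralateral nerves. The wild-type DRG gave 1.42 with the injection and 1.599 opposite to it, and the nude DRG 1.08 and 1.40. The wild-type cord gave 3.01 at the lumbar and 3.78 at the rostral level, and the nude cord 3.43 and 2.98. Gpr15lg was above background on all 12 arrays, and apart from the injected nerves the cord arrays held the highest values and the wild-type contralateral nerve the lowest.

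The nude nerve ratio of Gpr15lg was 5.49, or 45.0-fold, the largest of 9445 measured genes. The wild-type ratio was 3.60, or 12.1-fold, at place 9 of 10191. Here the deposited signals differed without any scaling as well, 1459 against 103 in the nude nerves, which is 14.1-fold. GPR15, the receptor, was not above background on any of the 12 arrays. These values rest on a single spot per array, so no spot spread can be set beside them.

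S100a8 had its highest levels outside the nerve. The wild-type DRG had a relative signal of 24.8 with the injection and 27.1 opposite to it, and the nude DRG had 75.1 and 18.5. The wild-type nerve had 4.51 where injected and 0.367 where not, and the nude nerve had 2.18 and 0.343. The wild-type cord had 0.574 at the lumbar and 1.89 at the rostral level, and the nude cord had 4.56 and 2.58. All 4 DRG arrays lay above every nerve and cord array, and in wild-type rats the injected nerve did not reach the uninjected-side ganglia.

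S100a9 followed the same course. Its relative signal was 31.3 in the wild-type DRG with the injection and 32.3 opposite to it, and 86.9 and 27.5 in the nude DRG. The wild-type nerve had 6.48 where injected and 0.597 where not, and the nude nerve 4.19 and 0.893. The wild-type cord had 0.921 at the lumbar and 2.07 at the rostral level, and the nude cord 7.06 and 3.86. Again the 4 DRG arrays were above all others.

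Lcn2 stayed at background. Its signal as deposited ran from 2.22 to 11.5 over the 12 arrays, and on no array were both spots above background. A single spot was above it in 3 conditions, the wild-type nerve and DRG with the injection and the nude nerve without. The relative signal was 0.236 in the injected and 0.235 in the contralateral nude nerve, and 0.292 and 0.116 in the wild-type nerves. No ratio is given for Lcn2 in any comparison.

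**Figure D1:**
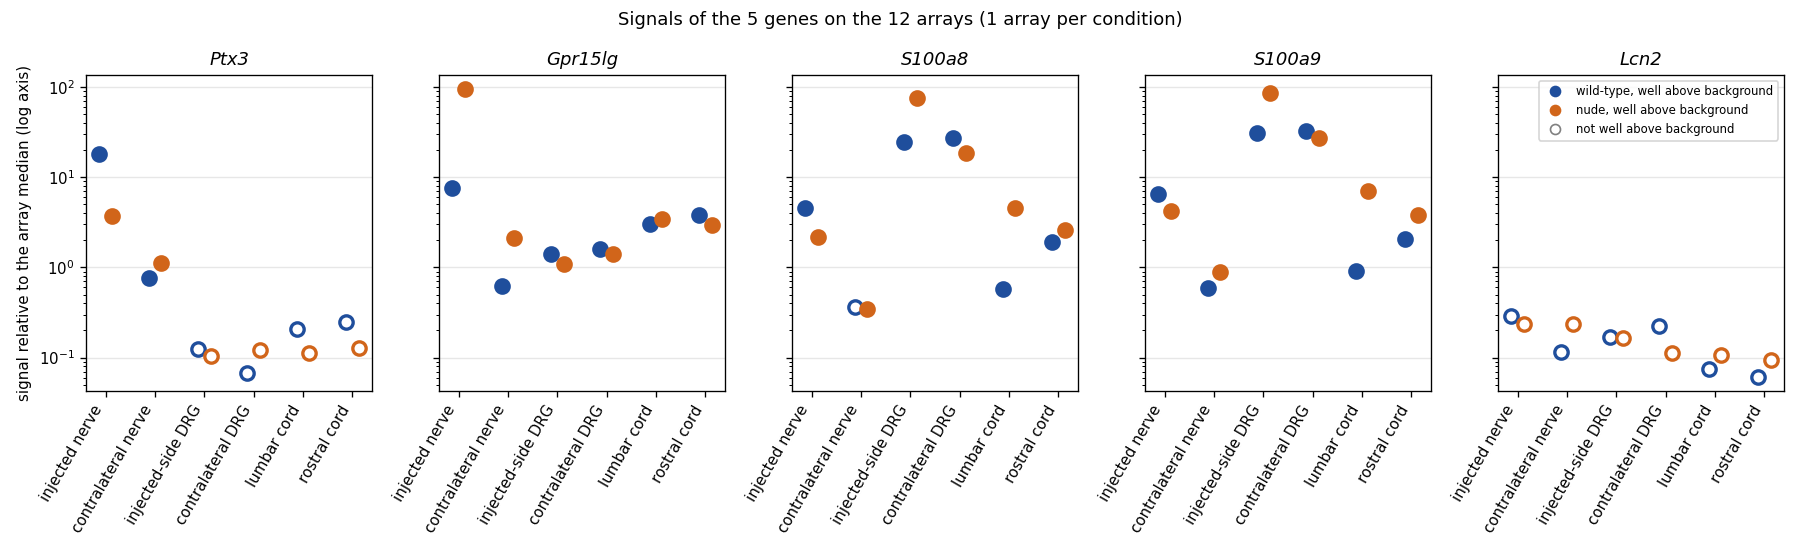
Signal of each gene relative to the median probe of the array (log axis) in the 6 tissues of wild-type (blue) and nude (orange) rats, 1 point per array. Filled points are well above background and open points are not. Ptx3 is filled in the nerves alone, Gpr15lg peaks at 94.9 in the injected nude nerve, S100a8 and S100a9 are highest in the DRG, and Lcn2 is open throughout.

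Of the 4 members measured in the nerve, 4 were at least 2-fold higher with the injection in wild-type rats, where 4.69% of all genes were higher and 4.09% lower, and 4 in nude rats, where 7.5% were higher and 13.5% lower. The genes were chosen on these ratios, so nothing is read from the counts. S100a8 was at least 12.2-fold higher in the injected wild-type nerve, a bound because 1 of its 2 spots on the contralateral array was not above background, and S100a9 was 10.9-fold higher (log2 ratio 3.44). After normexp background correction the wild-type log2 ratios of Ptx3, Gpr15lg, S100a8 and S100a9 were 3.01, 2.17, 1.57 and 1.71. With both Ptx3 probes averaged its wild-type ratio was 3.59. In nude rats the ratios were 6.35-fold for S100a8 (2.67) and 4.69-fold for S100a9 (2.23). In wild-type rats Lbp (3.46) lay just above and Tyrp1 (3.44) just below S100a9, the lowest of the 4 members by ratio. Lbp encodes the lipopolysaccharide-binding protein.

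The nude nerve ratios depend on how the arrays are put on 1 scale. The injected array was the dimmest and the median ratio over all genes was −0.38. In that comparison 708 genes were at least 2-fold higher and 1278 lower, so 35.6% of the called genes were higher, but that share was 67.9% with the 75th percentile as the scale and 0.658% after normexp background correction. Relative to the median over all genes, the nude ratios were 2.11 for Ptx3, 5.88 for Gpr15lg, 3.05 for S100a8 and 2.61 for S100a9. Over the other ways of processing that kept the background filter, these relative values ran from 1.38 to 2.37 for Ptx3, from 4.61 to 5.89 for Gpr15lg, from 1.66 to 3.07 for S100a8 and from 1.70 to 2.63 for S100a9. All 4 members were above the median gene in each of them. They had been chosen for high nerve ratios, so nothing is read from this.

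Between the rat types the nerve ratios differed in opposite senses. The wild-type ratio exceeded the nude one by 2.86 log2 units for Ptx3, by 1.21 for S100a9 and by 0.94 for S100a8, where the median gene differed by 0.35. For Gpr15lg the difference was −1.89, the nude ratio being higher. Of 9383 genes measured in both, 0.14% differed by as much as Ptx3 and 0.59% by as much as Gpr15lg. For S100a9 that share was 4.89% and for S100a8 12.6%. The members were chosen on nerve ratios, so nothing is read from these shares. Without scaling between arrays, when the median gene had ratios of 0.07 (wild-type) and −1.97 (nude), the differences were 4.66 for Ptx3, 3.01 for S100a9, 2.74 for S100a8 and −0.09 for Gpr15lg. With the mean over both Ptx3 probes its difference was 1.57. None of these differences was tested.

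**Figure D2:**
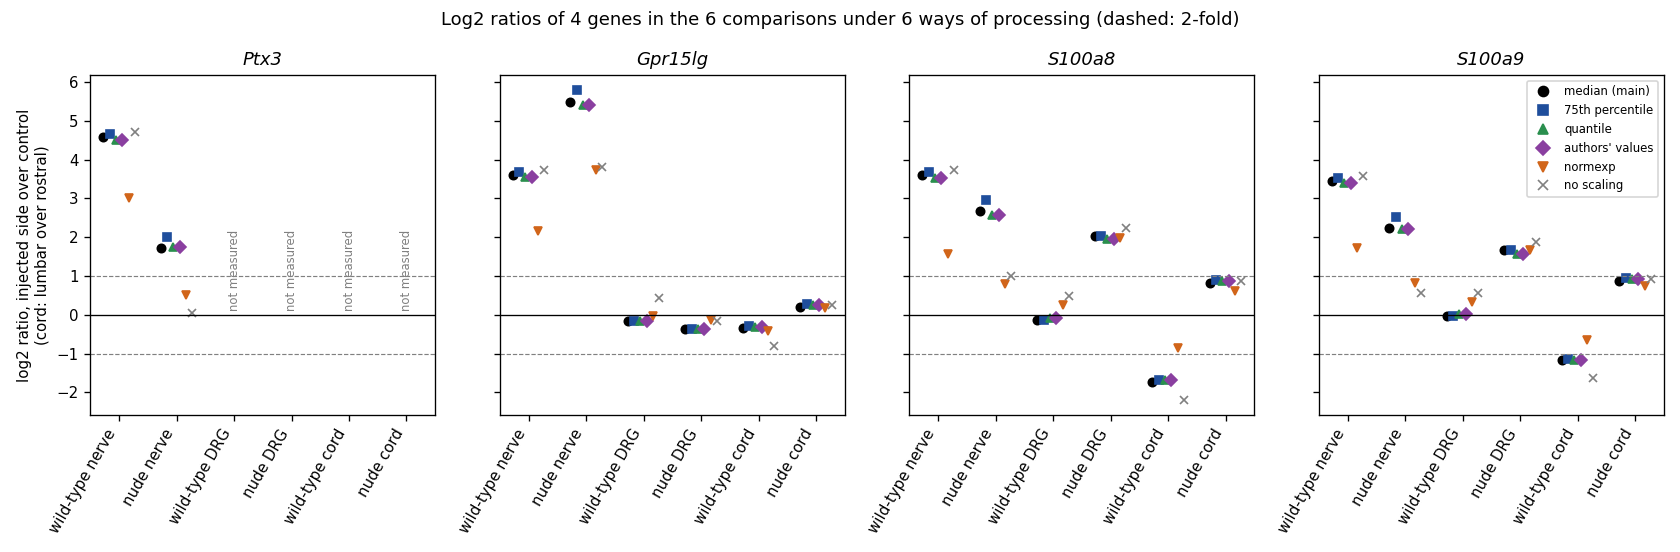
Log2 ratio of 4 genes (injected over contralateral side, or lumbar over rostral cord) in the 6 comparisons under 6 ways of processing, 1 symbol for each, with dashed lines at 2-fold. The nude nerve ratios of Ptx3, S100a8 and S100a9 fall inside 2-fold with normexp correction and without scaling, while the nude DRG ratios of S100a8 and S100a9 stay outside it.

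In the DRG, where the members were not chosen, S100a8 and S100a9 were higher with the injection in nude rats and near equal on both sides in wild-type rats. The nude ratio was 2.02 for S100a8, or 4.05-fold, at place 16 of 9506 genes, and 1.66 for S100a9, or 3.16-fold, at place 26. The largest gap between spots on these arrays was 0.09 log2 units, a technical spread that does not cover differences between animals. In wild-type rats the ratios were −0.13 and −0.04, and they were 0.26 and 0.32 after normexp correction and 0.49 and 0.57 without scaling, when the median gene stood at 0.61. Relative to the median gene they lay between −0.15 and 0.09 and between −0.07 and 0.15 over the ways of processing, so they have no settled sign. Gpr15lg had ratios of −0.17 and −0.37 in the wild-type and nude DRG. Of 3 members measured, 2 were at least 2-fold higher in nude rats, where 0.684% of all genes were higher and 0.389% lower. In wild-type rats 0 were, where 0.49% of all genes were higher and 0.517% lower.

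The wild-type minus nude difference in the DRG was −2.15 for S100a8 and −1.70 for S100a9. Of 9470 genes measured in both, 0.18% differed by as much as S100a8 and 0.517% by as much as S100a9. For Gpr15lg the difference was 0.20. In bulk tissue more cells of a type and more RNA per cell cannot be told apart.

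Some other alarmin and antimicrobial genes were also higher on the injected side of the nude DRG. Camp, which encodes the neutrophil peptide cathelicidin, had a relative signal of 44.1 on the injected side of the nude DRG against 9.49 on the contralateral side, and 13.6 against 11.7 in wild-type rats. Np4, a rat neutrophil defensin, had 139.7 against 23.6 in nude and 38.5 against 19.98 in wild-type rats. Pglyrp1, a peptidoglycan-binding protein of granules, had a nude ratio of 1.10, and the iron hormone gene Hamp one of 1.37. These 4 were the genes at least 2-fold higher of 16 measured in the list of other alarmins and antimicrobial proteins. Of all genes 0.684% were at least 2-fold higher in the nude DRG. The list median was 0.22, beside 0.02 for all genes. Camp is also in the list of neutrophil markers below.

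The neutrophil markers summed to a relative signal of 62.6 on the injected side of the nude DRG and 24.8 on the contralateral side, and without Camp to 18.5 and 15.4. In wild-type rats the sums were 27.7 and 27.2. Of the 16 on the array 6 were measured in the nude DRG, with a median of 0.27, and Camp alone reached 2-fold. Among the 16, Ltf, Cxcr1, Mmp8 and Olfm4 were above background on 0 of 12 arrays, Elane on 1, and Ctsg and Cxcr2 on 2. Others were detected, since 9 of the 16 were above background on the injected side of the wild-type DRG and 6 on that of the nude DRG. On the contralateral side 4 were in each rat type. Of the 6 measured in the nude DRG 5 were above 0. Skeletal muscle genes moved on the same arrays, 5 of 6 being at least 2-fold higher in the nude injected-side DRG with a median of 2.12, against 0 of 7 in wild-type rats with a median of 0.17. Of 7 red blood cell genes Ahsp (1.08) alone was at least 2-fold higher in the nude DRG, where their median was 0.12, and in the wild-type DRG all 7 were below 0, with a median of −0.84. Their part in the S100a8 and S100a9 values was not tested.

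In the cord S100a8 and S100a9 went opposite ways in the rat types. In wild-type rats they were lower at the lumbar than at the rostral level, by 3.30-fold for S100a8 (log2 ratio −1.72, place 11038 of 11047) and by 2.25-fold for S100a9 (−1.17, place 10994). In nude rats they were higher at the lumbar level, by 1.77-fold (0.82) and 1.83-fold (0.87), which is inside 2-fold. Gpr15lg had ratios of −0.33 and 0.21. Of 3 members measured, 2 were at least 2-fold lower in wild-type rats, where 0.833% of all genes were lower and 0.914% higher. In nude rats 0 were 2-fold higher or lower, where 0.778% of all genes were higher and 0.59% lower.

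The wild-type minus nude difference of the cord ratios was −2.54 for S100a8 and −2.04 for S100a9, and 0.0851% and 0.246% of 10572 genes differed by as much. After normexp correction the wild-type ratios were −0.85 and −0.65, both still below 0. The nude cord arrays and the wild-type cord arrays were on different slides, but both arrays of each comparison shared a slide.

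Some genes of blood cells and of muscle moved alongside in the cord. Camp had a relative signal of 0.592 at the lumbar and 1.26 at the rostral level of the wild-type cord, and of 1.94 and 1.34 in the nude cord. The wild-type cord had 0.566 and 1.31 for Np4, and the nude cord 5.14 and 2.52. Of 7 red blood cell genes 2 were higher at the lumbar level in wild-type rats, with a median of −0.55, and 7 in nude rats, with a median of 0.99. Ahsp, the hemoglobin chaperone, had ratios of −0.84 and 1.17. Of the skeletal muscle genes 0 of 5 were above 0 in the wild-type cord, with a median of −0.35, and 3 of 6 were at least 2-fold higher in the nude cord, with a median of 1.40. Schwann cell genes went the same way in both, since 6 of 7 were at least 2-fold higher at the lumbar level in wild-type and 5 of 7 in nude rats. The summed neutrophil signal was 12.1 and 13.4 in wild-type and 14.2 and 12.9 in nude rats. Of 7 neutrophil markers measured in the wild-type cord 1 was above 0, with a median of −0.39. Of 5 in the nude cord 3 were above 0, with a median of 0.14. The macrophage markers had medians of −0.02 and 0.08, beside −0.07 for all genes in both rat types. The part of these cells in the cord values was not tested.

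S100a8 and S100a9 varied together from array to array, though not in a fixed proportion. Over the 12 arrays their centred log2 signals had a Pearson r of 0.994 and a Spearman rho of 0.986, the arrays sharing tissues and animals. The log2 difference of their signals lay between −1.38 and −0.13, while their levels spanned 7.77 and 7.19 log2 units. Their genes lie 22717 bases apart on chromosome 2. After each other, the genes most like them by Pearson r among 10340 candidates above background on at least 6 arrays were Tnnc1, a troponin C (0.955 and 0.948), Ahsp (0.952 and 0.934) and Camp (0.942 and 0.936), with Pglyrp1 for S100a8 (0.940) and Tmsb15b2 for S100a9 (0.936).

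**Figure D3:**
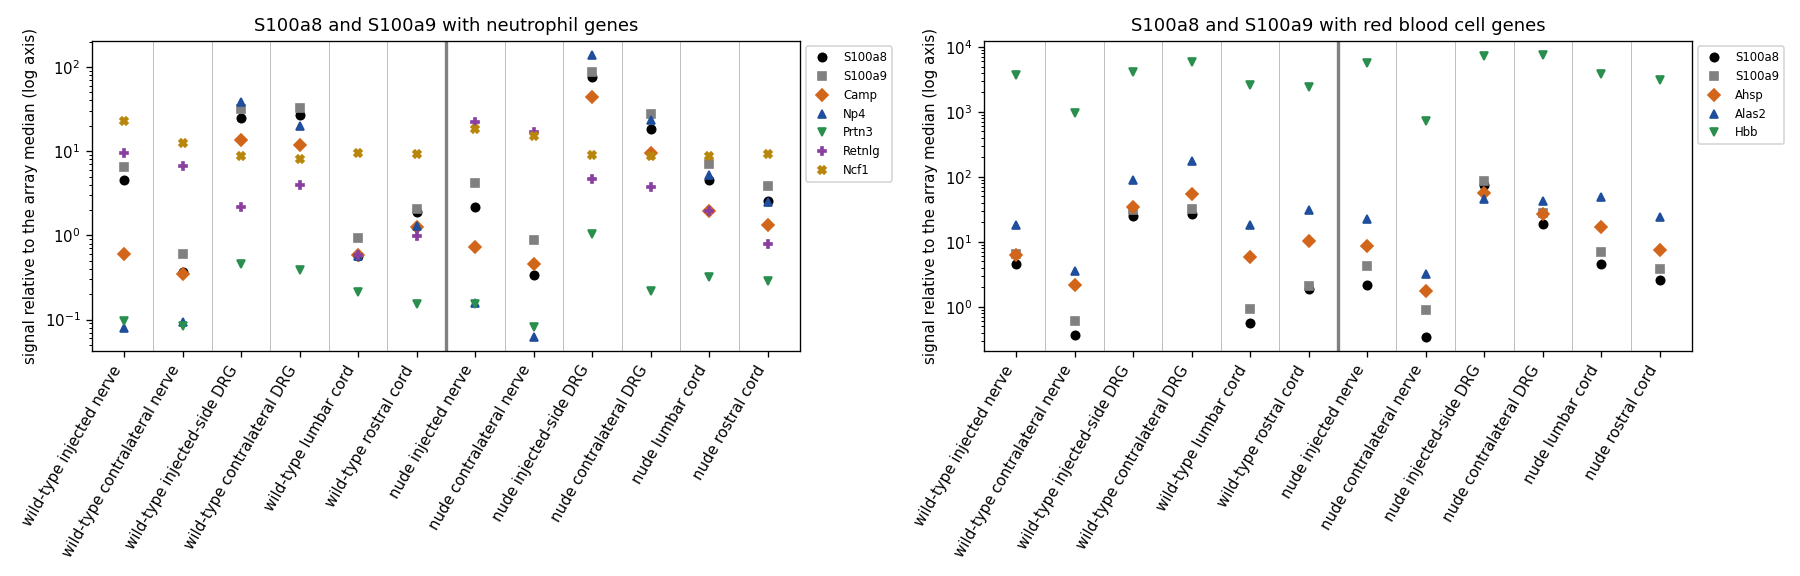
Signal relative to the array median (log axis) of S100a8 and S100a9 on the 12 arrays, beside 5 neutrophil genes (left) and 3 red blood cell genes (right), wild-type arrays left and nude arrays right of the thick line. Camp and Np4 stand highest with S100a8 and S100a9 on the nude injected-side DRG, whereas Camp is between 0.349 and 0.720 on the 4 nerve arrays.

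Camp and Np4 were lower in the nerves than in the DRG. Camp lay between 0.349 and 0.720 on the 4 nerve arrays, with a wild-type ratio of at least 0.71. Np4 was not above background on any nerve array. Red blood cell genes were at least 2-fold higher in the injected nerve, 7 of 7 in wild-type rats with a median of 1.97 and 6 of 6 in nude rats with a median of 2.87. The summed neutrophil signal was 39.8 and 25.4 in the injected and contralateral wild-type nerves, and 47.6 and 39.5 in the nude nerves. Of 7 neutrophil markers measured in the wild-type nerve 5 were above 0 and 1 at least 2-fold higher, with a median of 0.71. Of 5 in the nude nerve 3 were above 0, 1 was at least 2-fold higher and 1 lower, with a median of 0.29. Of 10 measured macrophage markers 3 were at least 2-fold higher in wild-type rats, with a median of 0.69, and 0 in nude rats, with a median of 0.19. Skeletal muscle genes were at least 2-fold higher for 5 of 7 in wild-type rats, with a median of 1.33, and at least 2-fold lower for 3 of 5 in nude rats, with a median of −1.11. Over all genes, 4.69% were at least 2-fold higher and 4.09% lower in the wild-type nerve, with a median of −0.05. In the nude nerve 7.5% were higher and 13.5% lower, with a median of −0.38. The part of these cells in the nerve values was not tested.

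Ptx3 and Gpr15lg ran apart from this pair and from each other. Ptx3 had an r of −0.17 with S100a8 and of 0.52 with Gpr15lg, with a rho of 0.11 for the latter. The genes most like Ptx3 were Ptpn1, a tyrosine phosphatase (0.977), Tlr2, a receptor for bacterial lipoproteins (0.971), Snx20 (0.968), the nucleotide receptor gene P2ry6 (0.958) and Snx29 (0.957). Ptx3 was not above background on 8 of these arrays, all outside the nerve. Its likeness therefore rests on differences among the nerve arrays and between nerve and other tissue. For Gpr15lg they were Ttk, a mitotic checkpoint kinase (0.897), Tk1, the thymidine kinase of dividing cells (0.863), Mex3b (0.858), Chrm4 (0.850) and the kinetochore gene Spc25 (0.840). Their Spearman rho with Gpr15lg was lower, 0.762, 0.783, 0.797, 0.573 and 0.503 in that order. Gpr15lg stood at 94.9 on the injected nude nerve and next at 7.59 on the injected wild-type nerve. Its Pearson r therefore leans on 1 array, where it was read from a single spot.

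Receptors and adaptors of the calprotectin pair were measured in both nerve comparisons. Tlr4 had nerve ratios of −0.12 (wild-type) and −0.42 (nude), Ager, which encodes RAGE, −0.26 and 0.92, and the adaptor Myd88 0.53 and −0.39. Emb, which encodes embigin, had the highest ratios of the list, 2.24 and 1.73, from relative signals of 4.52 against 0.959 in wild-type and 3.70 against 1.12 in nude nerves. The co-receptor Cd14 had 1.27 and 0.34. Of the 10 genes in this list 2 were at least 2-fold higher and 0 lower in the wild-type nerve. In the nude nerve 1 was higher and 1, Cd36 at −1.17, was lower. Their medians were 0.16 and −0.40, beside −0.05 and −0.38 for all genes. Of all genes, 4.69% and 7.5% were at least 2-fold higher, and 4.09% and 13.5% lower.

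Other S100 genes did not share the nerve ratios. Of 10 measured, 0 were at least 2-fold higher in either rat type, and S100a3 was lower in both (−1.44 and −1.40). S100b, the S100 protein of Schwann cells and astrocytes, had −0.87 and −1.02, while S100a11 had 0.52 and 0.56. The medians were −0.18 and −0.00054, beside −0.05 and −0.38 for all genes. In the cord S100a6 was higher at the lumbar level in both rat types, by 1.28 and 1.09.

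Of the partners of PTX3, the Fc gamma receptors had the highest ratios in the wild-type nerve. Of 11 measured ligands 4 were at least 2-fold higher in the wild-type nerve, and these were the Fc gamma receptors Fcgr3a (1.79), Fcgr2b (1.42), Fcgr1a (1.14) and Fcgr2a (1.09), to which pentraxins bind. In nude rats 0 were, and Fcgr3a had 0.39. Over all genes, 4.69% were at least 2-fold higher and 4.09% lower in the wild-type nerve, and 7.5% and 13.5% in the nude nerve. The list medians were 0.45 and 0.14, beside −0.05 and −0.38 for all genes. Fcgr1a is also among the macrophage markers. Itih3, of the inter-alpha-inhibitor heavy chains, was lower in wild-type rats (−1.12), and Fgf2 in nude rats (−1.44). Tnfaip6, which links PTX3 into the hyaluronan matrix, had 0.84 and 0.96. The neuronal pentraxin genes Nptx2 and Nptxr had ratios of −0.23 and −0.32 in wild-type but 1.32 and 1.48 in nude nerves. The liver pentraxins Crp and Apcs were not above background on any array.

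Slc22a17, a receptor of lipocalin 2, had −0.78 in wild-type and −1.15 in nude nerves, and it was highest in the cord, from 304 to 371 times the array median. Mmp9, whose product pairs with lipocalin 2, was above background on 0 of 12 arrays, Lrp2 on 3 and Mc4r on 5.

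Among cytokines and factors that induce the members, 2 of 18 measured were at least 2-fold higher in the wild-type nerve, Tlr2 (2.07) and Il6, and 1 of 16 in the nude nerve, Tlr2 (1.26). Il6 was above background on the injected wild-type nerve alone, so its 1.16 is a bound. Il1b had 0.75 and −0.18. The interleukin 17 genes Il17a and Il17f, and Il22, were above background on 0 of 12 arrays. The medians were 0.40 and −0.20, beside −0.05 and −0.38 for all genes. Of all genes, 4.69% were at least 2-fold higher in the wild-type nerve and 7.5% in the nude nerve.

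Further genes of the acute inflammatory response, listed with earlier results of these data known, were counted in the same way. In wild-type rats 9 of 18 measured were at least 2-fold higher and 0 lower, with a median of 0.95. In nude rats 9 of 17 were higher and 1, Cxcl1 (−2.56), was lower, with 12 above 0 and a median of 1.11. That median was −0.56 without scaling between arrays, when the median gene stood at −1.97. Over all genes, 4.69% were at least 2-fold higher and 4.09% lower in the wild-type nerve, and 7.5% and 13.5% in the nude nerve. Ccl20, a chemokine, had bounds of 4.48 and 3.06, and the hemoglobin scavenger Hp had 2.93 and 1.12. Hmox1, the heme-degrading enzyme, had 2.93 and 1.73. In the same nerves Il1rn, the interleukin 1 receptor antagonist, had 2.71 and 0.44, and complement C3 had 2.56 and 1.11. In the cord 2 of 13 of these genes were at least 2-fold higher in each rat type, beside 0.914% (wild-type) and 0.778% (nude) of all genes. In the DRG 0 of 15 were in wild-type and 1 of 14, Hp (1.08), in nude rats, beside 0.49% and 0.684% of all genes.

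Other alarmins and antimicrobial proteins differed among themselves. Lbp had nerve ratios of at least 3.46 and of 3.73, and Reg3g, a C-type lectin, of at least 0.59 and 2.29. Chi3l1 (1.32), Lyz2 (1.14) and Slpi (1.04) completed the 4 of 16 at least 2-fold higher in wild-type rats, while Pla2g2a, a secreted phospholipase, was lower in both (−2.45 and −2.78). In the nude nerve 2 of 13 were at least 2-fold higher and 3 lower. Of all genes, 4.69% were higher and 4.09% lower in the wild-type nerve, and 7.5% and 13.5% in the nude nerve. In the cord Pla2g2a had −1.79 in wild-type and 1.55 in nude rats, the same opposite senses as S100a8. Np4 (−1.21 and 1.03) and Camp (−1.10 and 0.53) shared them, whereas Reg3b was above background only on the lumbar array of the wild-type cord pair (at least 2.41).

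**Figure D4:**
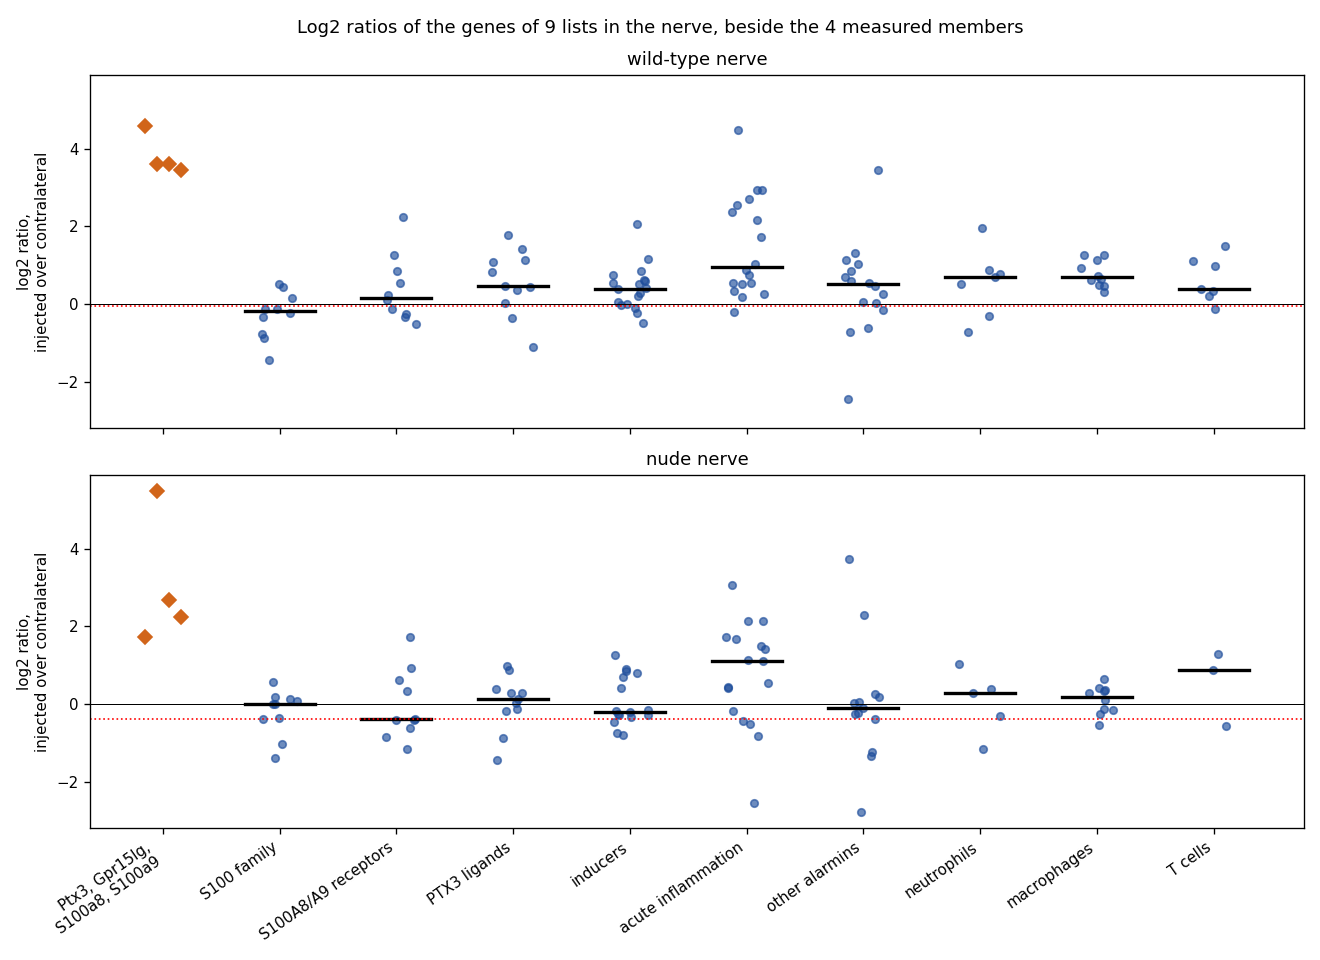
Log2 ratio (injected over contralateral nerve) of each measured gene of 9 lists, blue points, with the list median as a black bar, beside the 4 measured members, orange diamonds, in wild-type (top) and nude (bottom) rats. The dotted red line is the median of all genes, −0.05 and −0.38. The acute inflammation list has the highest median of the 9 lists plotted in both panels, 0.95 and 1.11, and the other S100 genes include none at 1 or above.

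Markers of T cells and of epithelium, with which GPR15LG is associated, were seen in part. Of 11 T cell markers 7 were measured in the wild-type nerve, and 2 were at least 2-fold higher, with a median of 0.39. In the nude nerve 3 were measured and 1 was higher. Over all genes 4.69% were at least 2-fold higher in the wild-type nerve and 7.5% in the nude nerve. Cd3e, Cd5 and Cd28 were above background on 0 of 12 arrays, whereas Cd3d and Cd8b were on all 12. Of 9 keratinocyte markers 5 were measured in wild-type and 5 in nude nerves, with 0 at least 2-fold higher in wild-type and 1 in nude rats, Dsg3 (0.91 and 2.06), which encodes a desmosomal cadherin. Krt5, a basal keratin, was at least 2-fold lower in both (−1.29 and −1.27). Dsg3 was above background on the 4 nerve arrays alone.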

How the data were processed

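Cy3-labelled total RNA (50 ng) was hybridized by the authors to Agilent rat arrays. The deposited intensity values are spot signals that the authors' Feature Extraction software (10.7.3.1 in the file headers, 10.5 in the labels) corrected for background, with no step between arrays. The deposited log2 values are the authors' normalized values, with medians near 5.27, and they had a Spearman rho of 1 with the scanner signals on every array. Deposited flags, 0 or 1, were set by that software for each spot that was well above background, saturated or an outlier.

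Each array had 58717 non-control spots for 30367 probes, of which 18006 were named through RefSeq accessions as 15159 genes. Log2 signals of the spots of a probe without an outlier flag were averaged and the array median was subtracted. A gene took its brightest probe. It entered a comparison when every spot of that probe was flagged on at least 1 of the arrays compared. Dimmer signals were set to a floor, the lowest signal of any probe above background on that array, and where this turned the ratio around the gene was left out. A ratio with 1 array below background is a bound. Calls were made at 2-fold in 6 comparisons, and saturation was seen on 0 spots. The number of arrays limits the precision.

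The members and the 21 gene lists (236 genes, 213 on the array) were chosen with earlier results of these data known. Named were the members, the 5 genes most like each by Pearson r, receptors and ligands, and up to 5 genes of a list by wild-type nerve ratio among those at least 2-fold changed. The values of Np4, Camp, Pglyrp1, Hamp, Ahsp, Reg3b, Reg3g, Pla2g2a, Dsg3 and of other list genes outside this rule were chosen after they were seen, as was the TATA box. Likeness was not computed for Lcn2. Other settings tried were scaling to the 75th percentile, quantile normalization, normexp (offset 50, on median spot signals), the authors' values, other filters, all probes, outlier spots and a 3-fold threshold. Detection by at least 50% of spots and no scaling were added after the data were seen. The method was tested on simulated data. Python 3.11.15, numpy 2.4.6, pandas 2.3.3, and limma 3.58.1 in R 4.3.3 were used.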

Additional observations from a re-analysis of the deposited data

Results flagged for a closer look

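With median scaling the ratios of S100a8 and S100a9 had opposite signs in the rat types in the DRG and in the cord. The wild-type sign was not settled in the DRG. These differences were not tested, since each ratio rests on 1 array per condition. For the DRG the log2 ratio of the injected over the contralateral side was −0.13 (wild-type) and 2.02 (nude) for S100a8, and −0.042 (wild-type) and 1.66 (nude) for S100a9. The wild-type DRG values were 0.26 and 0.32 after normexp correction and 0.49 and 0.57 without scaling between arrays, and that of S100a9 was 0.021 after quantile normalization and 0.022 with the authors' values. For the cord the log2 ratio of the lumbar over the rostral level was −1.72 (wild-type) and 0.82 (nude) for S100a8, and −1.17 (wild-type) and 0.87 (nude) for S100a9.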

How the results depend on the processing

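Of the 4 members at least 2-fold higher in the nude nerve, 1 remained so after normexp background correction and 1 without scaling between arrays, and this was Gpr15lg. The nude ratios of Ptx3, S100a8 and S100a9 were then 0.51, 0.79 and 0.83 after normexp correction and 0.05, 0.99 and 0.56 without scaling. Of the 2 members at least 2-fold lower in the wild-type cord, 0 passed after normexp correction and 1, S100a8, at a 3-fold threshold. The wild-type minus nude nerve difference of S100a9 was 0.99 with the 75th percentile and 0.89 after normexp correction.

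Counts over all genes moved more. Over the alternatives at 2-fold, genes higher ran from 27 to 4085 and lower from 530 to 8850 in the nude nerve, from 201 to 831 and from 107 to 741 in the wild-type nerve, from 26 to 913 and from 6 to 304 in the wild-type DRG, from 22 to 373 and from 1 to 282 in the nude DRG, from 20 to 266 and from 62 to 762 in the wild-type cord, and from 33 to 344 and from 13 to 259 in the nude cord. The share of called genes that were higher ran from 0.36% to 71.2% in the nude nerve, from 51.2% to 68.0% in the wild-type nerve, from 40% to 99.3% in the wild-type DRG, from 56.9% to 95.7% in the nude DRG, from 4.15% to 57.9% in the wild-type cord and from 54% to 71.7% in the nude cord. The cause was not tested. No paired analysis was possible because each condition has 1 array, and for the same reason no array was left out.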
